A study of Mus musculus with 4 samples.

Results

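Cells meet an overload of unfolded protein in the endoplasmic reticulum (ER) with a shared set of genes, and 33 of them were followed here in infarcted mouse hearts. They were chosen by name: 15 ER chaperones and folding enzymes, 4 genes of ER-associated degradation, 2 subunits of the translocon, 3 stress sensors, 3 transcription factors, 5 targets of the Atf4 type and 1 phosphatase subunit. A probe named through its RefSeq accession was found for all 33, and 32 of them were tested among 22924 features. Hearts were taken from male mice 5 days after a myocardial infarction, which had been made by tying off the left anterior descending coronary artery. Wild-type (WT) mice were set against VE-Cad-Cre-S1pr1 fl/fl mice (KO), in which a Cre recombinase under the VE-cadherin promoter is meant to delete the floxed S1pr1 gene, a receptor for sphingosine 1-phosphate, from endothelial cells. All mice were infarcted and no uninjured heart serves as a baseline. Age, and whether the WT mice carry floxed alleles, are not given in the labels. RNA of each sample, carrying the dye Cy3, was read on a 1-colour Agilent array. Each genotype had 2 arrays, WT replicates 1 and 3 and KO replicates 3 and 4. Whether each array is a separate heart is not stated either, so the spread behind each p-value is that of these samples alone and may be technical.

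Folding in the ER is watched by membrane sensors. Ern1 (IRE1) splices the Xbp1 transcript, Atf6 is cut in the Golgi to release a transcription factor, and Eif2ak3 (PERK) phosphorylates the initiation factor eIF2alpha. The first 2 branches raise ER chaperones and degradation genes. Phosphorylated eIF2alpha slows translation in general but favours translation of Atf4, and other kinases can start the same integrated stress response without ER stress, for example when amino acids run short. Atf4 drives amino acid synthesis, and with prolonged stress it drives Ddit3 (CHOP), which is tied to cell death. Cells that secrete much protein, such as fibroblasts, macrophages and plasma cells, keep ER chaperones high. Array probes of this kind measure total transcript, and Xbp1 splicing, Atf6 cutting and eIF2alpha phosphorylation were not measured.

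Some of the chaperones have a promoter feature in common. The ER stress response element, through which Atf6 and Xbp1 act, is CCAAT, then 9 bases of any kind, then CCACG. It was searched as exact letters on both strands of the 250 bases before each RefSeq start (GRCm38.p6). The promoter table held 29 of the 33 genes. A gene counted if any of its windows of that length matched. Of the 29, 8 (27.6%) had the element, against 0.13% of all 27025 genes in the table. The genes were chosen as members of a response that acts partly through this element, so the share is not independent of the choice. The 8 were 7 of the 13 chaperones in the table and Syvn1, and Hsp90b1 had the element at 2 places. Below, each element is shown 5′ to 3′ on the strand of its gene with 12 bases on either side, its fixed letters in capitals; where it lies on the opposite strand it reads CGTGG before ATTGG.
Hspa5, chr2:34772013-34772055, plus strand: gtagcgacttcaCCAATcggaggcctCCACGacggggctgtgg
Hsp90b1 (nearer), chr10:86705521-86705563, minus strand: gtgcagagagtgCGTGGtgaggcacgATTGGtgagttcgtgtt
Hsp90b1 (farther), chr10:86705626-86705668, minus strand: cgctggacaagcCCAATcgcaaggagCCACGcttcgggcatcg
Calr, chr8:84847063-84847105, minus strand: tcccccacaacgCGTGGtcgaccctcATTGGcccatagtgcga
Canx, chr11:50325788-50325830, minus strand: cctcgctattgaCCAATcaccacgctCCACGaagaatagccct
Pdia6, chr12:17266479-17266521, plus strand: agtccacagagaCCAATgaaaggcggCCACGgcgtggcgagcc
Dnajc3, chr14:118937815-118937857, plus strand: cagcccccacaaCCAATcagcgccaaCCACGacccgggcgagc
Creld2, chr15:88819508-88819550, plus strand: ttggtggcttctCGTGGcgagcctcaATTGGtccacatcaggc
Syvn1, chr19:6046520-6046562, plus strand: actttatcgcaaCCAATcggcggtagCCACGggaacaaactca

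In Hspa5, the best known target of this element, the exact match begins 65 bases before the start. The 250 bases before the start (chr2:34771840-34772089, plus strand) are shown because they also hold CCAAT at 2 further places, which are not followed by an exact CCACG at the right distance. Capitals mark the fixed letters of the exact match.
Hspa5 upstream: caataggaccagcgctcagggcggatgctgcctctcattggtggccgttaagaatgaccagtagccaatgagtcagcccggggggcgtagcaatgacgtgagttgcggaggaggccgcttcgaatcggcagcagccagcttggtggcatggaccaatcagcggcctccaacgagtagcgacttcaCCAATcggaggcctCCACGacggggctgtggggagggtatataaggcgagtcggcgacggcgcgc

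Atf4 acts through another sequence. The C/EBP-ATF response element (CARE, searched as TGATGNAA on both strands of the same windows) was found in 4 of the 29 genes (13.8%), against 3.91% of all genes. These were 2 of the 5 Atf4-type targets, Chac1 and Asns, with Atf3 and Herpud1. It is given with 12 bases on either side and its fixed letters in capitals, and it reads TTNCATCA where it lies on the opposite strand.
Chac1, chr2:119351037-119351068, plus strand: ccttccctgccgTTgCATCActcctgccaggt
Asns, chr6:7693213-7693244, minus strand: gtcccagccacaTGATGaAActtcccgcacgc
Atf3, chr1:191183424-191183455, minus strand: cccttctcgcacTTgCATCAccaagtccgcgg
Herpud1, chr8:94386305-94386336, plus strand: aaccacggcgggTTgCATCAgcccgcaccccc

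At another place, without overlap, Herpud1 had the type II element, which is ATTGG, 1 base of any kind and CCACG, found in 0.037% of all genes. None of the 29 genes had the unfolded protein response element TGACGTGG, found in 0.603% of all genes. These are matches of letters in a short window and were not tested as binding sites. For CARE and the type II element too, the choice of genes by response bears on the shares. The 8 genes with the first element all had a lower mean in KO, with a median difference between KO and WT of -0.83 on the log2 scale. The 21 tested genes of the table without it were low as well, with 15 lower in KO and a median of -0.56. The sets also differ in role, since 7 of the 8 are chaperones and the 21 include the Atf4-type targets. Chaperones with the first element ran from -1.09 (Creld2) to -0.14 (Canx). Chaperones of the table without the first element ran from -1.48 (Pdia4) to 0.16 (Dnajb9). The difference between the sets was not tested. Among the 11 tested genes outside the 33 that carry it, 7 were lower in KO, with a median of -0.61, as against a median of 0.071 over all features.

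The arrays themselves differed before any genotype is considered. A level is a log2 processed signal from which the 75th percentile of its array was subtracted. A difference between genotypes is always given as KO minus WT, in log2 units. Signals well above background made up 54.3% of probes on WT replicate 1 and 69.4% to 73.4% on the other arrays. The SD of the negative control spots was 6.79 on WT replicate 1 and 1.17 to 1.68 on the others. The lowest processed signal was 10.2 there and 1.34 to 1.84 on the others. How far these technical values bear on the levels was not tested. The cardiac genes Myh6 and Tnnt2 were well above background on all 4 arrays. WT replicate 1 stood apart: its 16 ventricular cardiomyocyte markers had a mean level of 2.33, against 6.53 on WT replicate 3, 6.33 on KO replicate 3 and 7.14 on KO replicate 4. In bulk tissue, fewer cells of a type and less RNA per cell cannot be told apart. All 4 arrays lay on 1 slide with each genotype at adjoining positions, so slide position and genotype cannot be told apart. S1pr1 was lower on both KO arrays (-2.69 and -2.30) than on both WT arrays (0.43 and 0.95), and its adjusted p in limma was 0.740. Whether its probe lies in the deleted part was not determined here.

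No stress response gene passed the test between genotypes. With limma and Benjamini-Hochberg adjustment over all features, 0 of the 32 tested genes had an adjusted p under 0.05, as did 0% of the 22924 features. The smallest unadjusted p among the 32 was 0.0808 (Atf3), so 0 of them lay under 0.05, against 2.76% of all features. As values, 25 of the 32 had a lower mean in KO (78.1%), where 45.2% of all features did, and their median difference was -0.69. Both KO arrays lay below both WT arrays for 8 of the 32 (25.0%), against 16.1% of features, and above for 1, against 18.3%. In either direction the genotypes did not overlap for 28.1% of the 32 genes, against 34.4% of all features. Without WT replicate 1, 22 were lower and the median was -0.16. The median was -1.21 without WT replicate 3 and -0.46 without KO replicate 4.

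Nearly all ER chaperones had lower means in KO. Of the 14 tested, 13 had a lower mean in KO, with a median difference of -0.94 and a mean of -0.83, or 1.78-fold lower. All 14 were well above background on all 4 arrays, all 14 were higher on WT replicate 1 than on WT replicate 3, and 12 had their highest level on WT replicate 1. Their mean depended on that array: leaving it out gave -0.22, and leaving out WT replicate 3 gave -1.43. On WT replicate 1 the macrophage markers also had their highest mean level (3.57) and the cardiomyocyte markers their lowest, and their part in the result was not tested.

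**Figure D1:**
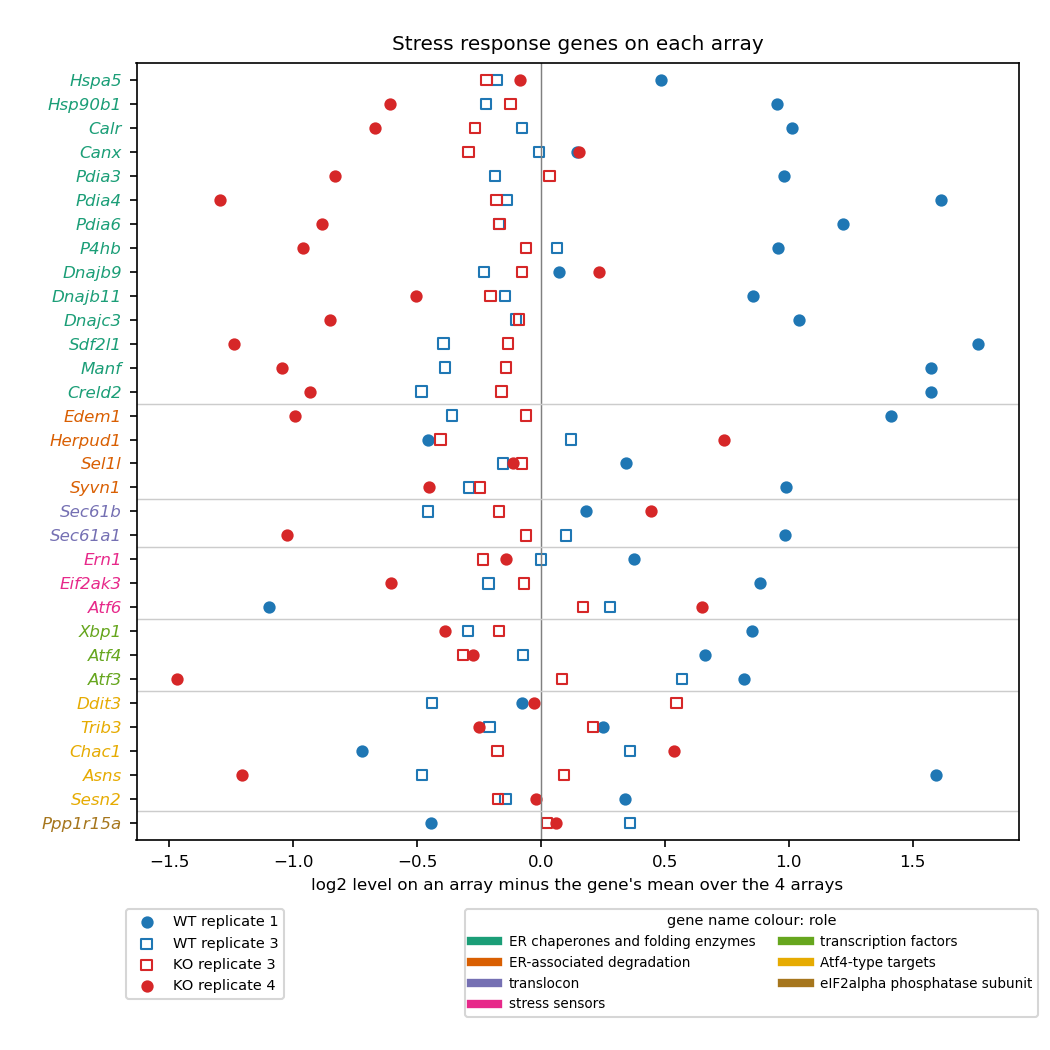
Level of each tested gene on each array, as the log2 level minus that gene's mean over the 4 arrays (x axis), with genes in rows ordered by role and their names coloured by it; filled blue circles are WT replicate 1, open blue squares WT replicate 3, open red squares KO replicate 3 and filled red circles KO replicate 4. For most chaperones WT replicate 1 lies far to the right and KO replicate 4 to the left, while WT replicate 3 and KO replicate 3 lie side by side near 0, as for Pdia6 (4.48 on both).

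Hspa5 encodes BiP, the main Hsp70 chaperone of the ER and the partner that holds the sensors inactive. It stood at 6.30 and 5.64 on the WT arrays and at 5.60 and 5.74 on the KO arrays. WT replicate 1 was the highest and the other 3 arrays lay close together, so the genotypes overlapped, with a difference of -0.31 (SE 0.38, 95% interval -1.32 to 0.71). Hsp90b1 (GRP94), the Hsp90 of the ER, stood at 6.14 and 4.97 in WT, while KO had 5.07 and 4.58, with overlap, and differed by -0.73 (SE 0.53).

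The lectin chaperones, which hold glycoproteins during folding, did not go together. Calr, the soluble form, was at 4.76 and 3.67 in WT and at 3.48 and 3.08 in KO. Both KO values were below both WT values, and the difference was -0.93 (SE 0.50, unadjusted p 0.127 and adjusted p 0.740 in limma). Canx, its membrane-bound relative, was at 4.20 and 4.05 in WT and 3.76 and 4.21 in KO. Here WT replicate 1 and KO replicate 4 were nearly equal at the top, and the difference was -0.14 (SE 0.34).

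Protein disulfide isomerases form and shuffle disulfide bonds, and all 4 had a lower mean in KO. Pdia4 had the largest difference of the chaperones, with levels of 1.61 and -0.14 in WT and -0.18 and -1.30 in KO. The genotypes did not overlap, but WT replicate 3 and KO replicate 3 lay only 0.043 apart, and the difference was -1.48 (SE 0.76, 95% interval -3.53 to 0.58). P4hb, which is also a subunit of the collagen prolyl hydroxylase, was at 4.60 and 3.70 in WT and 3.58 and 2.68 in KO, again without overlap, and differed by -1.02 (SE 0.52). Pdia6 was at 5.87 and 4.48 in WT and 4.48 and 3.77 in KO and differed by -1.05, and its second probe by -0.86. Pdia3, the partner of the lectin chaperones, differed by -0.80 and overlapped, with KO replicate 3 above WT replicate 3.

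The J-domain cochaperones, which set the pace of BiP, went both ways. Dnajb11 (ERdj3) was at 3.79 and 2.79 in WT and 2.73 and 2.43 in KO, a difference of -0.71 (SE 0.47) without overlap. Dnajc3 (p58IPK), which also inhibits PERK, was at 1.28 and 0.14 in WT and 0.15 and -0.61 in KO and differed by -0.94 (SE 0.55). Dnajb9 (ERdj4), which restrains IRE1, was the only tested chaperone with a higher mean in KO: 0.93 and 0.63 in WT, 0.78 and 1.09 in KO, a difference of 0.16 (SE 0.34). Its second probe gave 0.15. For Dnajb9 KO replicate 4 was the highest array, the reverse of most chaperones.

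Of the chaperones, the small stress-induced ER proteins spread the most between the WT arrays. Sdf2l1, a cofactor of the J-domain proteins, was at 0.58 and -1.58 in WT and -1.32 and -2.43 in KO. Manf, a secreted survival factor held in the ER, was at 4.28 and 2.33 in WT and 2.57 and 1.67 in KO. Creld2 was at 3.79 and 1.74 in WT and 2.06 and 1.29 in KO. In each of these 3 genes WT replicate 1 was about 2 log2 units above WT replicate 3 (2.16, 1.96 and 2.06), and KO replicate 3 lay above WT replicate 3. Their differences between genotypes were -1.37 (SE 0.87), -1.19 (SE 0.79) and -1.09 (SE 0.80). Hyou1 (ORP150), a nucleotide exchange factor for BiP, was well above background on 0 of the 4 arrays and was not tested.

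**Figure D2:**
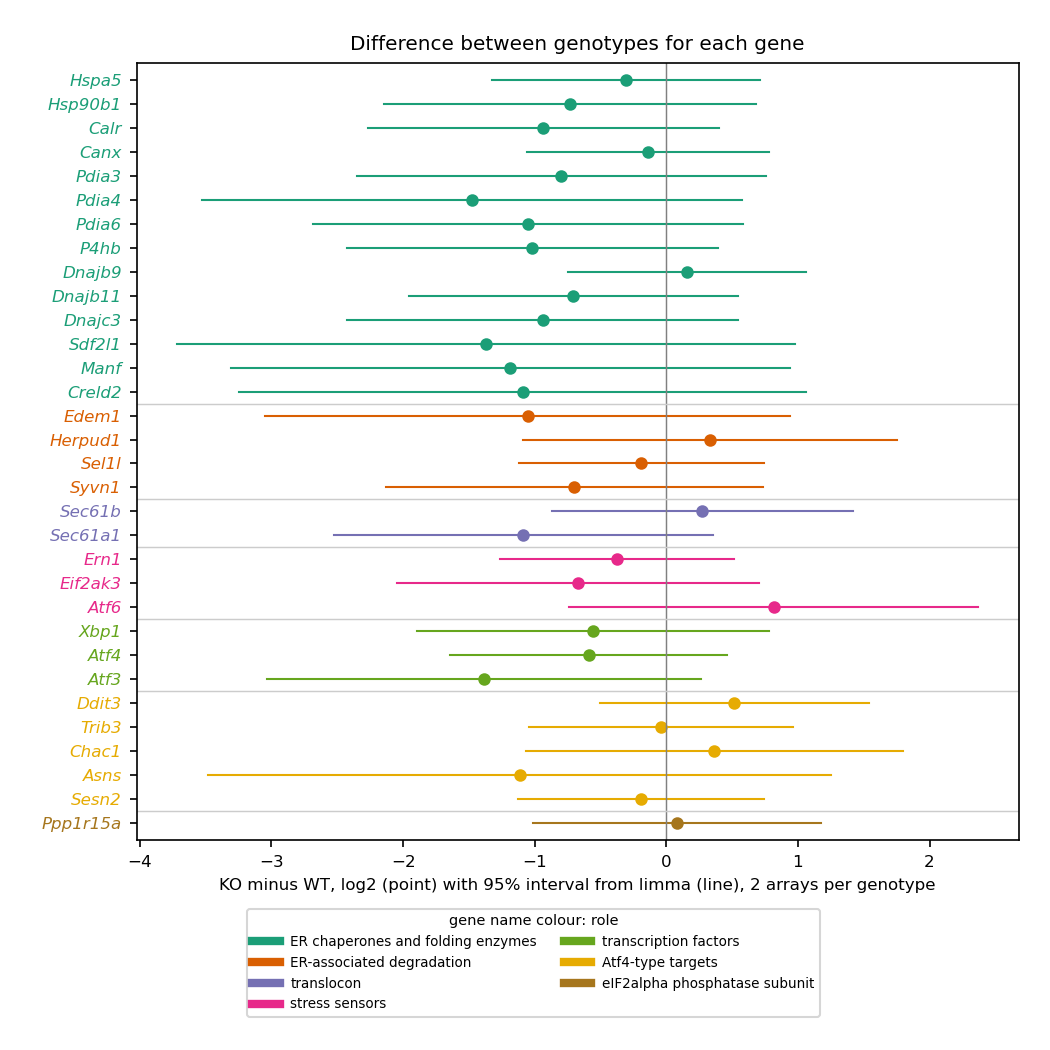
KO minus WT for each tested gene on the log2 scale (points) with its 95% interval from limma (lines; 2 arrays per genotype), coloured by role. Every interval crosses 0, that of Pdia4 running from -3.53 to 0.58, and all chaperones apart from Dnajb9 lie left of 0.

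Genes of ER-associated degradation, which sends misfolded protein to the proteasome, split. Edem1, a lectin that picks out misfolded glycoproteins, was at 2.74 and 0.97 in WT and 1.27 and 0.34 in KO, a difference of -1.05 (SE 0.74). Syvn1 (HRD1), the ubiquitin ligase of the pathway, was at 3.90 on WT replicate 1 and between 2.46 and 2.67 on the other 3 arrays, and differed by -0.70. Its partner Sel1l differed by -0.19 (SE 0.35). Herpud1, a scaffold of the same ligase and a target of both branches, ran the other way: 3.65 and 4.23 in WT and 3.70 and 4.85 in KO, so that WT replicate 1 was its lowest array and KO replicate 4 its highest. Its difference was 0.33 (SE 0.53), and -0.24 without KO replicate 4.

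The translocon carries new proteins into the ER. Sec61a1, the channel subunit, was at 5.61 and 4.73 in WT and 4.56 and 3.60 in KO, with both KO arrays below, a difference of -1.09 (SE 0.54). The small subunit Sec61b was highest on KO replicate 4 (5.96) and differed by 0.27, while its second, dimmer probe differed by -0.22, so its direction is uncertain.

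The sensors went both ways. Ern1 was dim on all arrays, at -3.68 and -4.06 in WT and -4.29 and -4.20 in KO. On WT replicate 1 this is near the dimmest probe that passed background (-4.39), and the difference was -0.37 (SE 0.33). Eif2ak3 was at 1.82 and 0.72 in WT and 0.87 and 0.33 in KO, an order of arrays like that of the chaperones, and differed by -0.67 (SE 0.51). Atf6 had the opposite order: it was lowest on WT replicate 1 (-2.50), at -1.12 on WT replicate 3, and at -1.23 and -0.75 in KO. Its difference was 0.82 (SE 0.58), the largest in that direction among the 32 genes, and 0.13 without WT replicate 1.

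The 3 transcription factors all had lower means in KO. Xbp1 was at 5.14 on WT replicate 1 and between 3.90 and 4.12 on the other arrays, and differed by -0.56 (SE 0.50). Atf4 was at 5.28 and 4.55 in WT and 4.30 and 4.34 in KO. Both KO values were lower, the difference was -0.59 (SE 0.39), and its second probe gave -0.35. Atf3, an early stress gene also induced by inflammation, was at 0.095 and -0.15 in WT and -0.64 and -2.19 in KO. In Atf3 the WT arrays lay close together and KO replicate 4 was far below the rest. The difference was -1.39 (SE 0.61, 95% interval -3.03 to 0.26; 2.61-fold), with an unadjusted p of 0.0808 and an adjusted p of 0.740 in limma. It was -1.26 without WT replicate 1, where the mean over the chaperones was -0.22; it was -0.61 without KO replicate 4 and -2.16 without KO replicate 3.

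The Atf4-type targets had no common direction. Their mean difference was -0.094 and their median -0.040, with 3 of 5 lower in KO. The mean was 0.14 without WT replicate 1, 0.053 without KO replicate 4, -0.24 without KO replicate 3 and -0.32 without WT replicate 3. All 5 were well above background on all 4 arrays. Ddit3 (CHOP) was at -1.74 and -2.10 in WT and -1.11 and -1.69 in KO. It was the only gene of the 32 for which both KO arrays lay above both WT arrays, though KO replicate 4 and WT replicate 1 were nearly equal, and the difference was 0.52 (SE 0.38, 95% interval -0.50 to 1.54). Chac1, which breaks down glutathione, was at 0.43 and 1.51 in WT and 0.98 and 1.69 in KO. WT replicate 1 was its lowest array, and it differed by 0.36 (SE 0.53).

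Asns, the asparagine synthetase, was the target that followed the chaperones. It was at 2.48 and 0.40 in WT and 0.97 and -0.32 in KO, with the arrays in the order of Manf and Creld2, and differed by -1.11 (SE 0.88). Trib3, a pseudokinase that dampens Atf4, was at 0.59 and 0.14 in WT and 0.55 and 0.094 in KO. It differed by -0.040 (SE 0.37), and by 0.049 when normexp on median signals and quantile normalization together replaced the processed signal and its scaling. Sesn2, a sensor of leucine that restrains mTORC1, was at 0.0080 and -0.47 in WT and -0.51 and -0.35 in KO, a difference of -0.19 (SE 0.35). Ppp1r15a (GADD34), the phosphatase subunit that reverses eIF2alpha phosphorylation, was at 1.28 and 2.08 in WT and 1.74 and 1.78 in KO. Its difference was 0.084 (SE 0.41), and -0.026 with arrays scaled to their median.

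Set against each other, chaperones and Atf4-type targets differed most on WT replicate 1. For each array the mean deviation of the genes from their own means over the 4 arrays was taken. For the 14 chaperones it was 1.02 and -0.19 in WT and -0.15 and -0.68 in KO. For the 5 targets it was 0.28 and -0.18 in WT and 0.10 and -0.19 in KO. Both scores overlapped between genotypes. Chaperones minus targets gave 0.74 and -0.0072 in WT and -0.25 and -0.49 in KO, so that both KO arrays lay below both WT arrays. WT averaged 0.37 ± 0.53 and KO -0.37 ± 0.17 (SD, n = 2 arrays per genotype), and KO minus WT was -0.73. Leaving out WT replicate 1 gave -0.36, and leaving out WT replicate 3 gave -1.11. No p-value is given for a score over chosen genes, and with 2 arrays against 2 an exact two-sided permutation test cannot go below 0.333. The choice of targets mattered too. With Atf3 and Ppp1r15a counted among them the difference was -0.58, and among the 5 targets Asns alone differed by more than 1 log2 unit.

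The arrays of each genotype stood apart from each other. WT replicate 1 minus WT replicate 3 had a median of 1.15 over the 14 chaperones, and 28 of the 32 genes were higher on WT replicate 1 (87.5%), against 50.03% of all features. Between KO replicate 3 and WT replicate 3, which carry different genotypes, the median difference over the chaperones was 0.0052, and 6 of 14 were lower on the KO array. KO replicate 4 minus KO replicate 3 had a median of -0.74 over the chaperones, with 11 of 14 lower on KO replicate 4 (78.6%), against 38.3% of features. For the 5 Atf4-type targets these medians were 0.46, 0.42 and -0.46, and for the 13 other tested genes 0.64, -0.11 and -0.034. The gap between the WT arrays was thus larger than the difference between the genotypes for the chaperones as a group.

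**Figure D3:**
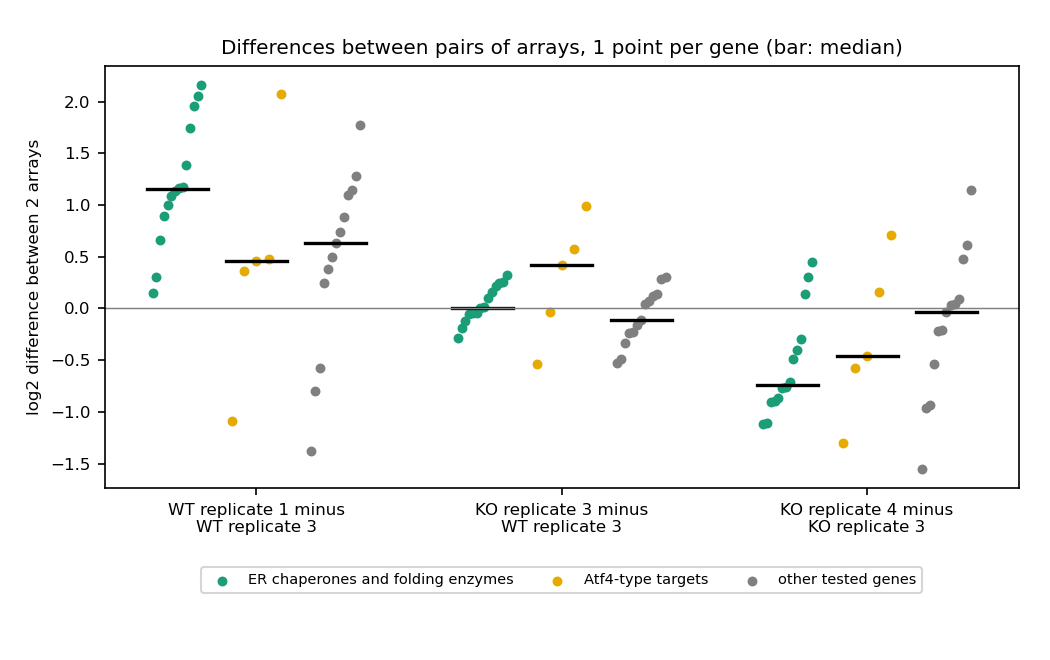
Log2 differences (y axis) between 3 pairs of arrays (x axis), 1 point per gene, for ER chaperones (green), Atf4-type targets (yellow) and the other tested genes (grey); black bars are medians. Chaperones have a median of 1.15 between the WT arrays and of -0.74 between the KO arrays, and lie around 0 between KO replicate 3 and WT replicate 3.

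Other genes of the secretory pathway, from lists set by function, gave a like pattern in the values, and no gene of these lists had an adjusted p under 0.05. Of 22 other ER folding factors, 21 had a lower mean in KO (median -0.65), and all 22 were higher on WT replicate 1 than on WT replicate 3. Fkbp11, a prolyl isomerase of secretory cells, differed by -1.74 (SE 0.92). Pdia5 was the exception, at 1.20 and 0.94 in WT and 1.91 and 2.79 in KO, a difference of 1.29 (SE 0.43, unadjusted p 0.0369 and adjusted p 0.740 in limma). It was 0.85 without KO replicate 4, with an unadjusted p of 0.231 in limma. Of 21 other translocon and glycosylation genes, 19 were lower (median -0.50), with Ssr1 at -1.19 (-0.75 as the mean of its probes) and Sec61g at -0.83. Of 16 other degradation genes, 12 were lower (median -0.41), with Faf2 at -0.64 and Ufd1 at -0.44, the latter at -0.085 as the mean of its probes. Of 10 other ER stress transducers, 9 were lower (median -0.49). Among these the membrane-bound transcription factors Creb3l3 and Creb3l1 differed by -2.28 (SE 1.01) and -1.51 (SE 0.71), the latter a regulator of collagen secretion. Both KO arrays lay below both WT arrays for 8 of the 22 folding factors and 11 of the 21 translocon and glycosylation genes. They did so for 5 of the 16 degradation genes and 6 of the 10 transducers, against 16.1% of all features. In the same order of lists, WT replicate 1 was highest for 20, 20, 11 and 10 of them, against 39.0% of all features.

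The wider integrated stress response was mixed. Of 19 tested Atf4 and stress response targets outside the 5, 12 were lower and 7 higher (median -0.24). Stc2, a secreted glycoprotein, was at -4.21 and -2.36 in WT and -1.72 and -1.37 in KO and differed by 1.74 (SE 0.70). It passed the background flag on all 4 arrays, but on WT replicate 1 it was near the dimmest probe that passed (-4.39). Psat1, an enzyme of serine synthesis, was at 2.02 and 0.94 in WT and 0.73 and -1.14 in KO and differed by -1.68 (SE 0.79). As the mean of its probes the difference was -1.33. All 12 aminoacyl-tRNA synthetases, which load tRNAs and include Atf4 targets, had lower means in KO, by a median of -0.22, with Aars at -0.55 and Yars at -0.63. The eIF2 kinases, eIF2 and eIF2B were split 6 and 6 (median -0.11). The kinase Eif2ak2 (PKR), also an interferon-induced gene, was at -1.06 and -0.38 in WT and -1.46 and -2.24 in KO, a difference of -1.12 (SE 0.46), and Eif2s2 differed by -0.52, but by -0.0094 as the mean of its probes.

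Chaperones of other compartments did not share the pattern of the ER. Cytosolic heat shock genes were split, with 5 lower and 6 higher among 11 tested (median 0.02); the small heat shock proteins Hspb8 and Cryab, abundant in muscle, differed by 1.74 (SE 0.75) and 0.83 (SE 0.56). Mitochondrial chaperones and proteases had the opposite order of arrays. All 8 had a higher mean in KO (median 0.74) and their highest level on KO replicate 4, and 6 had their lowest on WT replicate 1. For 4 of the 8, both KO arrays lay above both WT arrays, against 18.3% of all features. Trap1 differed by 0.86 (SE 0.45) and Dnaja3 by 1.08 (SE 0.63).

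**Figure D4:**
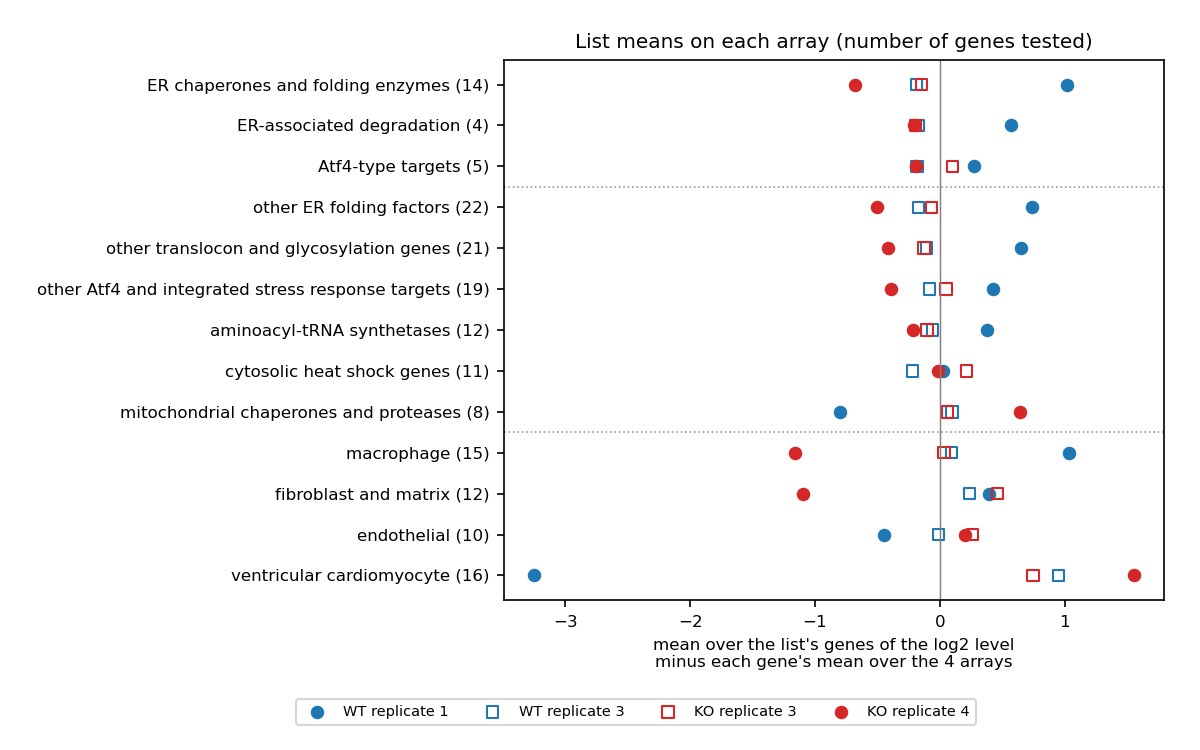
Mean over each list's tested genes (number in brackets) of the log2 level minus the gene's mean over the 4 arrays, with 1 point per array, for stress response genes, other lists of the pathway and, below the lower dotted line, cell type markers. The ER chaperones and the macrophage markers are highest on WT replicate 1 and lowest on KO replicate 4 (1.02 and -0.68 for the chaperones), and mitochondrial chaperones and cardiomyocyte markers show the reverse.

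Markers of heart cell types differed between the arrays as well. All 16 cardiomyocyte markers were lower on WT replicate 1 than on WT replicate 3 (median difference -4.03), and all 16 had a higher mean in KO (median 2.19). The genotypes overlapped for all 16, and all 16 were lower on KO replicate 3 than on WT replicate 3 (median difference -0.19). Macrophage markers had mean levels of 3.57 and 2.63 in WT and 2.57 and 1.38 in KO, with 15 of 15 tested lower in KO (median -0.60) and all 15 well above background on all 4 arrays. Their highest and lowest arrays were those of the chaperones. Fibroblast and matrix markers were alike on 3 arrays (4.43, 4.27 and 4.50) and lower on KO replicate 4 (2.94), with 8 of 12 lower in KO (median -0.51). The part of these cell types in the chaperone differences was not tested.

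Plasma cell and B cell markers come from cells rich in ER. Their highest and lowest mean levels were on the arrays of the chaperones, but KO replicate 3 lay near WT replicate 1. Of 7 tested, 5 had a lower mean in KO (median -0.36), and their part in the chaperone differences was not tested. Averaged over 7 tested genes, they stood at -1.26 on WT replicate 1, -4.13 on WT replicate 3, -1.51 on KO replicate 3 and -4.66 on KO replicate 4, so that each genotype had 1 high and 1 low array. Neutrophil markers were at 0.71 on WT replicate 1 and between -1.44 and -0.89 on the other arrays, with 5 of 7 lower in KO. Endothelial markers, of the cells the Cre is meant for, were all higher in KO (10 of 10, median 0.39). Both KO arrays lay above both WT arrays for 6 of the 10, against 18.3% of all features. WT replicate 1 was the lowest array for 8 of the 10, against 9563 of the 22924 features. Smooth muscle and pericyte markers split 4 and 4 (median 0.36), and 5 of 6 T and NK cell markers were higher in KO (median 0.32).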

How the data were processed

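The input was each spot's processed intensity, from which Feature Extraction 11.0.1.1 had removed background and spatial trend, per the file headers; the submitters' processing notes name version 9.1. The scanner's spot flags, another kind of value, were taken as deposited. The authors' log2 value table, an alternative, has a median of 6.12 in all 4 columns; its scale and direction follow the scanner values (slopes of 0.976 to 1.02 on log2 signal in the brighter probes), genes are not centred, and how it was normalized is not given in the sources used here. Spots of control probes and outliers were left out (15 probes had only outlier spots on an array), and no spot was saturated. Spots of a probe were averaged as log2. The 75th percentile of each array was subtracted. Of 39414 probes, 27227 were named through RefSeq (GRCm38.p6), 0 had several symbols and 12187 kept the array's identifier. The brightest probe of each gene was tested if its signal passed the scanner's background flag on 2 or more of the 4 arrays.

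The genotypes were compared in limma 3.58.1 (lmFit, eBayes; R 4.3.3) by a two-sided test at a threshold of 0.05 after Benjamini-Hochberg adjustment over 22924 features. The 33 genes and all lists were chosen with earlier results of these data known. Named outside the 33 genes were the 2 of smallest p in each pathway list, S1pr1, Myh6 and Tnnt2. Alternatives tried were other scalings, normexp with an offset of 50, the deposited values, filters, a common floor, the mean of probes, eBayes with trend and robust options, and each array left out. Array number limits the precision.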

Additional observations from a re-analysis of the deposited data

How the results depend on the processing

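As in the main setting, 0 features had an adjusted p under 0.05 in limma under the 14 alternatives. With 2 arrays per genotype this says nothing about stability. The count of genes lower in KO stayed between 22 and 26. Unadjusted, 0 of the 32 genes had a p under 0.05 in limma under any alternative that kept all 4 arrays. Over all features the count ran there from 416 of 17233 (strictest filter) to 825 of 32438 (no filter). With each array left out in turn the chaperone mean ran from -1.43 to -0.22, the Atf4-type mean from -0.32 to 0.14, and their difference from -1.11 to -0.36. The Atf4-type mean turned sign without WT replicate 1 (0.14) and without KO replicate 4 (0.053). Of the 32 genes, 22 kept their sign in all 14 alternatives. Without WT replicate 1, 7 turned sign (Hspa5, Sel1l, Xbp1, Trib3, Chac1, Sesn2 and Ppp1r15a); the cause was not tested. Scaling to the array median moved the median of all features by -0.11 and the chaperone mean to -0.94, a shift common to all genes. The other scalings, filters and the deposited values left the chaperone mean between -0.88 and -0.82. No paired analysis was made because the labels state no pairing of arrays between the genotypes. Dim signals limit Ern1 and Hyou1, most of all on WT replicate 1.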
